A study of Mus musculus with 18 samples.

Results

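The genes examined were those of the proteasome, the protease that degrades ubiquitin-tagged proteins, in nuclear and total RNA of mice carrying a Nup93 mutation. Members were chosen by symbol: Psma, Psmb, Psmc, Psmd, Psme, Psmf or Psmg followed by a number, leaving out Psmb8, Psmb9 and Psmb10, the interferon-induced catalytic subunits. The rule found 47 of the 24602 genes in the count table. They are 8 alpha-ring and 8 beta-ring genes of the 20S core, 6 ATPases and 3 other subunits of the 19S base, 8 subunits of the 19S lid, 3 chaperones of 19S assembly, 4 chaperones of 20S assembly, and 6 activators or regulators of the core. The remaining symbol, Psmc3ip, matched by name only: its product binds a 19S ATPase and acts in meiotic recombination, and it is not a proteasome subunit.

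RNA-seq counts of 18 libraries were used, 3 in each of 6 groups formed by an RNA fraction and a Nup93 genotype. Nup93 encodes a scaffold nucleoporin of the nuclear pore, and R388W is a knock-in substitution in it. Nuclear WT and Total WT carried no mutant allele, Nuclear Het and Total Het were heterozygous for R388W (R388W/+), and Nuclear Hom and Total Hom were homozygous for it. The title of the series names the strain as 129S1/SvlmJ, and the labels used here give no age or treatment.

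In the proteasome, stacked rings of alpha and beta subunits form a barrel whose inner beta subunits Psmb5, Psmb6 and Psmb7 cut peptide bonds. The 19S cap recognises ubiquitin chains, removes them, and unfolds substrates with its ring of ATPases, while other caps such as Psme1 with Psme2 (PA28), Psme3 and Psme4 (PA200) open the barrel without ATP. When proteasome activity falls, cells raise transcription of the subunit genes together through the factor NFE2L1, which is itself released from the endoplasmic reticulum by VCP and cleaved by DDI2.

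Libraries held 17.4 to 23.5 M counts (M, mega) as used here. The column of Total WT replicate 1 was deposited at 10.2 times the mean of the other 17 libraries, and the sum of the 9 nuclear columns was subtracted from it, a step chosen after the data were seen. Total Hom replicate 2 held 7.12% of its counts in the ribosomal RNA precursor Rn45s. Xist, the RNA of the inactive X chromosome, was at 334 to 545 CPM (counts per M counts of a library) in the libraries of Nuclear Het, Nuclear Hom and Total WT. It was at 0.341 to 1.67 CPM in those of Nuclear WT, Total Het and Total Hom, so genotype and sex cannot be told apart in any comparison with WT, nor fraction and sex in WT or Het or Hom. Hom and Het libraries of a fraction lay on the same side of this split. Nup93 itself was at 15.9 to 22.6 CPM as group means, and these counts do not show the substitution.

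The series text names isolated podocytes, whereas the sample labels name mouse tissue. Summed levels of 15 podocyte markers were 627 to 912 CPM as group means, beside 35582 to 67036 CPM for 15 proximal tubule markers and 9092 to 13523 CPM for 12 distal nephron markers. The transcripts of the 47 genes therefore come from material in which tubule RNA predominates. In such bulk RNA, fewer cells of a type and less RNA per cell cannot be told apart. The labels do not state whether replicate libraries were made from different mice, so the p-values below reflect spread among libraries that may be technical.

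Of the 47 genes, 43 had a mean of at least 5 CPM over the 18 libraries and carry the results. Their means, scaled by TMM (an edgeR method that sets most genes' changes near 0), ran from 12.7 CPM for Psmg3 to 224 CPM for Psmd2, with a median of 101 CPM. The other 4 were low. Psma8, the testis form of an alpha subunit, had 215 counts in all 18 libraries, and Psmb11, the thymus form of a beta subunit, had 3. Psmc3ip had 1268 counts, and Psme2b had 575. The Psme2b transcript was identical to that of Psme2 at 99.4% of 794 aligned bases (GRCm38 transcripts), so its counts, and a small part of those of Psme2, are uncertain.

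Promoters were examined because subunit genes are known to be controlled together. RefSeq windows of 300 bases around the transcription start (GRCm38.p6; the submitters' processing notes name mm9 for the counts) were found for 39 of the 47 genes, 42 windows in all. The 4 windows below span 150 bases before to 20 bases after the start, read 5′ to 3′ on the gene's strand. Psme4, with the largest changes, and the catalytic genes Psmb5 and Psmb6, which moved apart, are shown because their windows held the letters TGACNNNGC, the core of the sites bound by NFE2L1 and related factors. Psme1, which moved against most members, is shown for an interferon-type motif, GAAA followed by any 2 bases and GAAA again. Capitals mark these motifs and, in Psme4, also CCGGAAG, the core of ETS-factor sites. The TGACNNNGC match of Psme4 and the GAAA match of Psme1 lie on the opposite strand, so the printed capitals are their reverse complements.
Psme4 (chr11:30771625-30771794, plus strand): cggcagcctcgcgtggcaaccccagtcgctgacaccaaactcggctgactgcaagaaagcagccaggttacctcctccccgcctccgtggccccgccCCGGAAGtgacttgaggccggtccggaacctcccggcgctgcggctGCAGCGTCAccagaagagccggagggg
Psmb5 (chr14:54617976-54618145, minus strand): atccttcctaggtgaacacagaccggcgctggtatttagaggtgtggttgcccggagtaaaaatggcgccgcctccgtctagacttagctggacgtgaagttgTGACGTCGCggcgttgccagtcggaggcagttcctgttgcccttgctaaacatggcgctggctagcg
Psmb6 (chr11:70525207-70525376, plus strand): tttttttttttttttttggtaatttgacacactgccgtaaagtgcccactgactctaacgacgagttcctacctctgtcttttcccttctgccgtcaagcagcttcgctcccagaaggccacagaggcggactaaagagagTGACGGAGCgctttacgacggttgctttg
Psme1 (chr14:55578344-55578513, plus strand): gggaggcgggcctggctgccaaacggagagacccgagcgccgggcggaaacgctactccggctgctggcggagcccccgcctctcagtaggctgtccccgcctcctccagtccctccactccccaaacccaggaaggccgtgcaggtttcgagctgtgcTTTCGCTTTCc
Counted on both strands, TGACNNNGC was in the windows of 6 members, 14.3% of the members' 42 windows, namely Psmb5, Psmb6, Psmc6, Psmd9, Psmd12 and Psme4. It was in 12.4% of all 32851 RefSeq windows of this length, so the members' share was near that of all genes. CCGGAAG was in the windows of 15 members, 38.1% of the members' windows against 8.86% of all windows. CCAAT, the letters of the CCAAT box, was in the windows of 14 members, 33.3% of the members' windows against 37.4% of all windows. The paired GAAA motif was in those of 5 members, Psmb3, Psmd4, Psmd9, Psme1 and Psmg4, 11.9% of the members' windows against 3.44% of all windows. It was not found for Psme2, which rose with Psme1 in nuclear Het against WT. Of the other genes that hold it, Psmg4 rose in that comparison, Psmb3 and Psmd4 fell, and Psmd9 was not called. The motifs were chosen with results of these data known, and a match of letters is not evidence of binding.

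Per kilobase of gene length, the highest levels were those of core genes. Over the 18 libraries, beta-ring genes ran from 64.0 (Psmb5) to 197 CPM per kb (Psmb4), and alpha-ring genes from 44.6 (Psma3) to 131 CPM per kb (Psma2). The 19S ATPases ran from 55.7 (Psmc6) to 128 CPM per kb (Psmc3), the other base subunits from 53.1 (Psmd1) to 76.6 CPM per kb (Psmd4), and the lid from 39.8 (Psmd14) to 104 CPM per kb (Psmd3). By this measure, subunits that enter the particle in equal numbers differed by up to 3.08-fold within the beta ring and 2.95-fold within the alpha ring. The length is the 1 value deposited per gene, 2398 bases for Psma3 and 946 bases for Psma2. It need not be that of the transcripts present, so these ranges may partly reflect the lengths used. Assembly chaperones were lower, at 16.5 to 31.6 CPM per kb for 19S and 15.1 to 30.03 CPM per kb for 20S assembly. The caps spread most widely, from 11.6 CPM per kb for Psmf1, which encodes the regulator PI31, to 88.6 CPM per kb for Psme1.

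**Figure D1:**
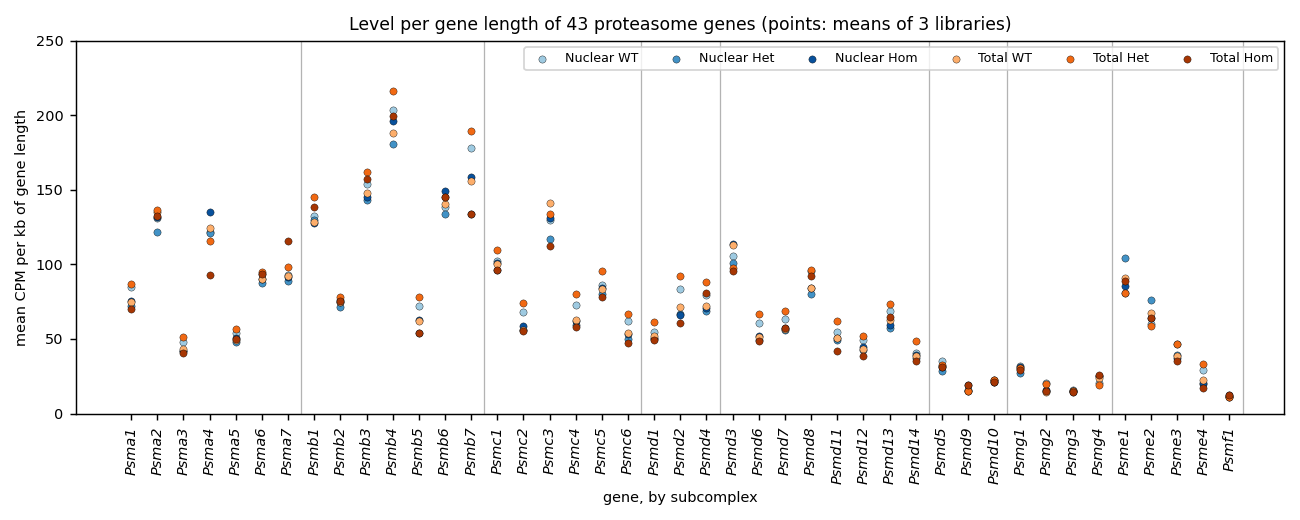
Level of 43 proteasome genes per gene length. The vertical axis gives mean CPM (TMM) per kb of gene length and the horizontal axis the genes by subcomplex, with 1 point for the mean of the 3 libraries of each group. As means over all 18 libraries, core genes reach 197 CPM per kb (Psmb4) and assembly chaperones 31.6 CPM per kb (Psmd5).

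As a whole the genes moved little, and the sign of their median change depended on the scale in several comparisons. On the TMM scale the 47 genes summed to 4642 ± 32 CPM (SD, n = 3) in Nuclear WT, 4134 ± 42 in Nuclear Het, 4332 ± 46 in Nuclear Hom, 4349 ± 50 in Total WT, 4888 ± 7.2 in Total Het and 4150 ± 13 in Total Hom. Total Het was highest and Nuclear Het and Total Hom lowest, with no overlap between Total Het and any other group. As a share of all counts they made up 0.434% in Nuclear WT, 0.438% in Nuclear Het, 0.442% in Nuclear Hom, 0.453% in Total WT, 0.451% in Total Het and 0.427% in Total Hom. Total Hom replicate 2 was at 0.406%, and at 0.437% with Rn45s left out of the total. On library totals the median log2 change of all genes was itself between -0.19 and 0.24 for the pairs of groups compared. It was 0.43 for the change of the nuclear-to-total ratio in Het, and changes are therefore read against that median. In every comparison, the median of the genes of at least 5 CPM lay on the same side of the all-gene median on both scales. Shares of all genes called were not counted on library totals, so counts of calls on that scale are not read as a direction.

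**Figure D2:**
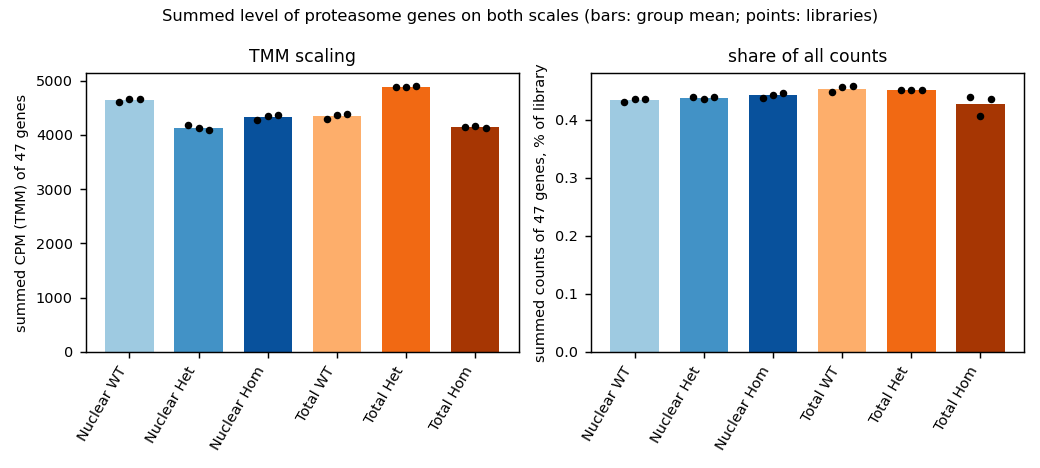
Summed level of the 47 proteasome genes. Left, summed CPM on the TMM scale; right, their share of all counts in percent; bars are means of 3 libraries and points are libraries. On the TMM scale Total Het (4888) and Nuclear WT (4642) stand above the rest, whereas the shares lie within 0.427% to 0.453%, and Nuclear WT lies above Total WT on the TMM scale and below it by share.

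Summed proximal tubule markers moved with the TMM level: they were at 58326 CPM in Nuclear WT and 67036 CPM in Total Het, and at 35582 to 37941 CPM in the other 4 groups. All 15 passed the low-count filter, and none was at 0. In nuclear RNA 3 rose and 11 fell in Hom against WT, where 26.5% of all genes rose and 27.8% fell, and 1 rose and 12 fell in Het against WT, where 32.8% rose and 31.7% fell. In total RNA 11 rose and 4 fell in Het against WT, where 30.9% of all genes rose and 30.3% fell, and 3 rose and 12 fell in Hom against Het, where 32.9% rose and 34.1% fell. Their part in the members' changes was not tested. Among the 43 genes, 29 were highest in Total Het, and 19 were lowest in Nuclear Het and 18 in Total Hom on the TMM scale. On library totals 18 were highest in Total Het and 11 in Total Hom. The ratio of the highest to the lowest group mean ran from 1.08 for Psmd10 to 1.92 for Psme4, with a median of 1.26. The genes that varied least included Psma6 (1.08), Psmg3 and Psmf1 (1.09 each), and those that varied most after Psme4 were Psmd2 (1.52), Psmd11 (1.48), Psma4 (1.46) and Psmb5 (1.44).

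**Figure D3:**
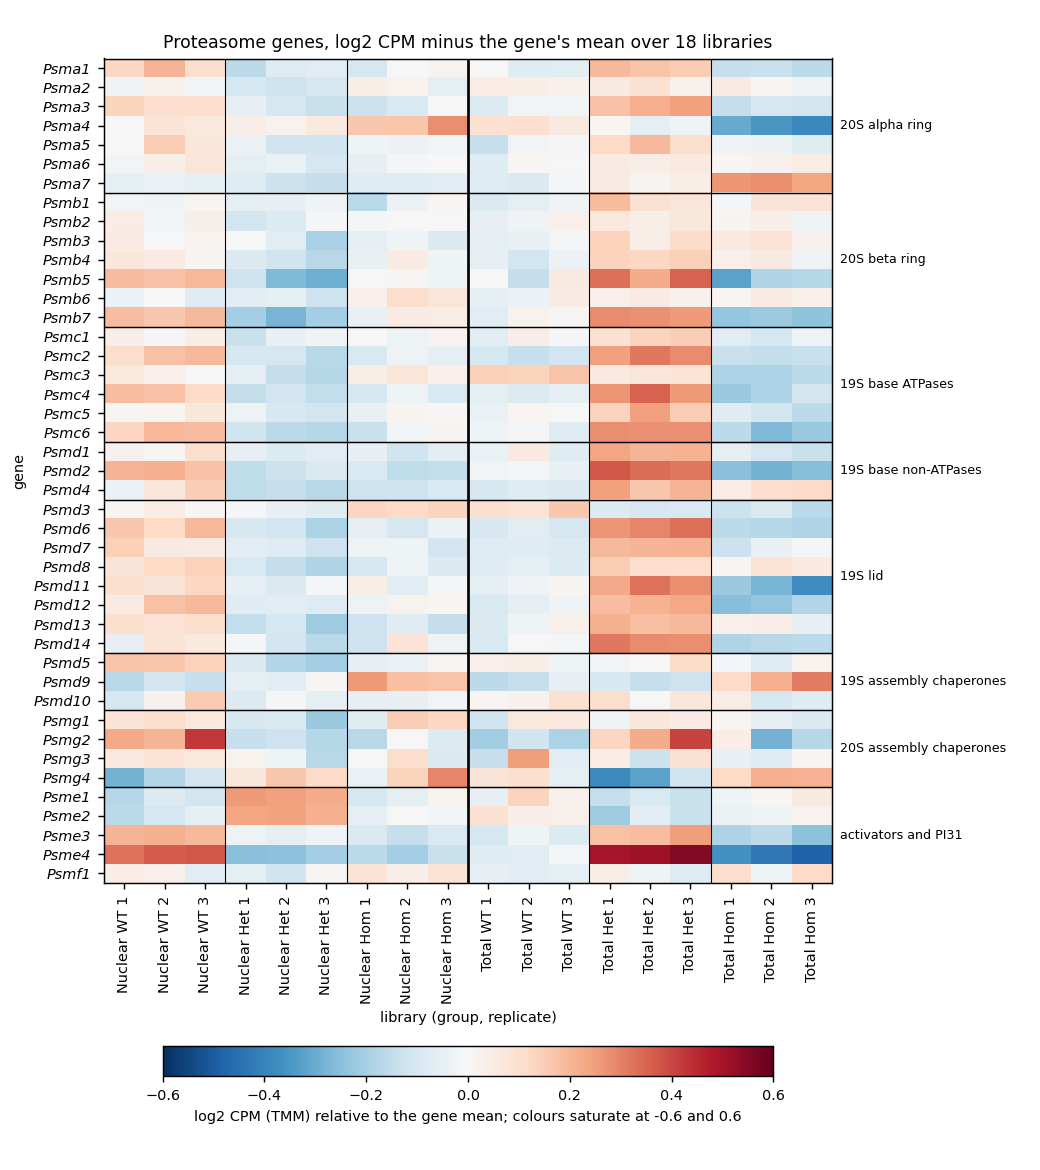
Relative level of 43 proteasome genes in the 18 libraries. Columns are libraries by group, lines are genes by subcomplex, and colour is log2 CPM (TMM) minus the gene's mean, saturating at -0.6 and 0.6. Total Het is above the gene mean for most genes on this scale, which library totals do not keep, while Psma4 is low and Psma7 high in all 3 Total Hom libraries.

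In nuclear RNA, homozygous mutants were compared with wild type to ask how the mutation alters nuclear transcripts. Of the 46 genes tested, 5 rose and 21 fell (edgeR quasi-likelihood test, Benjamini-Hochberg adjusted p under 0.05), 56.5% of the members, where 54.3% of all 15112 tested genes passed the same test. The share called was thus near the background. The share that fell was 45.7%, where 27.8% of all genes fell. The median log2 change of the 43 genes was -0.08, beside 0.02 for all genes. On library totals both medians moved up, to 0.04 and 0.14, so the sign flipped, 15 genes were called higher and 9 lower, and 14 of the 26 calls held with 0 reversed. With only genes of at least 5 CPM in the fit the median was -0.05. The 19S subunits fell in 12 of 17 cases, including all 3 base subunits without ATPase activity. In the 20S core 2 of 14 rose and 5 fell. The activators Psme3 and Psme4 fell, while Psmd9, Psmg4, Psma4, Psmb6 and Psmd3 were the genes that rose.

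Psme4, whose product PA200 caps the core and is known for acetyl-histone degradation, showed the largest difference. Its CPM was 186, 192 and 192 in the Nuclear WT libraries, 125, 126 and 129 in Nuclear Het, and 133, 129 and 136 in Nuclear Hom. In total RNA it was 142, 142 and 148 in Total WT, 209, 211 and 218 in Total Het, and 115, 111 and 106 in Total Hom. Nuclear WT and Total Het were thus high, and neither overlapped any other group. In nuclear Hom against WT it fell by 0.52 on the log2 scale (SE 0.03, edgeR adjusted p = 1.01e-27). Psme3, the nuclear PA28-gamma cap, fell by 0.31 (SE 0.03, edgeR adjusted p = 7.31e-13) there. Psme1 and Psme2, the interferon-inducible PA28 pair, were not called in that comparison.

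Psmd2, a scaffold of the base on which ubiquitin shuttles dock, had the smallest p of the base subunits without ATPase activity. It stood at 256, 259 and 251 CPM in Nuclear WT, at 200, 203 and 209 CPM in Nuclear Het, and at 208, 200 and 200 CPM in Nuclear Hom. The Nuclear WT libraries were all above those of both mutant groups, and the mutant groups overlapped. It fell by 0.33 in Hom against WT (SE 0.03, edgeR adjusted p = 1.39e-18). The ATPase Psmc4 was at 107, 106 and 102 CPM in Nuclear WT and at 87.4, 92.0 and 88.3 CPM in Nuclear Hom, a fall of 0.23 with no overlap (SE 0.04, edgeR adjusted p = 4.10e-08). The lid subunit Psmd6 was at 78.8, 76.5 and 80.9 CPM in Nuclear WT and at 67.5, 65.7 and 68.7 CPM in Nuclear Hom, again without overlap. Its fall was 0.23 (SE 0.04, edgeR adjusted p = 3.01e-07). On library totals these values were -0.11 for Psmc4 and -0.10 for Psmd6, with edgeR adjusted p of 0.0071 and 0.0165.

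In the core, the alpha subunit Psma3 was at 117, 115 and 114 CPM in Nuclear WT and at 97.3, 100.1 and 106 CPM in Nuclear Hom. It fell by 0.19 (SE 0.04, edgeR adjusted p = 6.02e-06), and the groups did not overlap. The trypsin-like subunit Psmb7 was at 173, 170 and 174 CPM in Nuclear WT and at 147, 157 and 157 CPM in Nuclear Hom, and fell by 0.16 (SE 0.03, edgeR adjusted p = 4.90e-06). Its active-site neighbour Psmb6, the caspase-like subunit, rose by 0.11 (SE 0.03, edgeR adjusted p = 0.00228). The calls of Psma3 and Psmb7 were lost on library totals, at -0.06 (edgeR adjusted p = 0.116) and -0.04 (edgeR adjusted p = 0.278), while Psmb6 was at 0.23. The catalytic genes thus did not move together on either scale.

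The assembly chaperones also split. Psmd9, which guides assembly of the ATPase ring, was at 37.9, 39.4 and 38.6 CPM in Nuclear WT, 40.8, 40.6 and 42.7 in Nuclear Het and 50.7, 48.2 and 47.9 in Nuclear Hom. The Nuclear Hom libraries were above all others of the fraction, and the rise over WT was 0.34 (SE 0.05, edgeR adjusted p = 1.07e-09). Psmg4, a chaperone of early alpha-ring assembly, rose by 0.32 in Hom against WT (SE 0.09, edgeR adjusted p = 0.000821). Psmg2, another chaperone of the alpha ring, was at 20.6, 20.3 and 23.6 CPM in Nuclear WT and at 15.7, 17.6 and 16.6 CPM in Nuclear Hom. It fell by 0.36 (SE 0.07, edgeR adjusted p = 7.59e-06). Psmg2 and Psmg4 have few counts (172 to 320 per library for Psmg4), and their errors are wider than that of Psmd9. Psmg3, with fewer counts in all than either, had a wider error than Psmg2 and was not called.

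In nuclear RNA of heterozygotes against wild type, 5 genes rose and 32 fell, 80.4% of members against 64.6% of all genes. Of the members 69.6% fell, where 31.7% of all genes did. All 17 subunits of the 19S particle fell, with a median of -0.21, and 10 of 14 core subunits fell. The median of the 43 genes was -0.15 beside 0.02 for all genes on the TMM scale, and 0.02 beside 0.20 on library totals, where the sign flipped, 17 genes were called higher and 10 lower, and 15 of the 37 calls held and 6 reversed. Among the largest falls on both scales were Psme4 (-0.58, SE 0.03), Psmg2 (-0.43, SE 0.07), Psmb5 (-0.41, SE 0.04) and Psmb7 (-0.41, SE 0.03). Psmb5 encodes the chymotrypsin-like subunit, and it stood at 63.0, 62.4 and 63.4 CPM in Nuclear WT and at 50.6, 46.0 and 45.0 CPM in Nuclear Het.

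The genes that rose in Nuclear Het were led by the PA28 pair. Psme1 was at 103, 102 and 101 CPM in Nuclear Het, against 76.6 to 94.7 CPM over the 15 other libraries. It rose by 0.37 over Nuclear WT (SE 0.04, edgeR adjusted p = 1.03e-14). Psme2 rose by 0.34 (SE 0.04, edgeR adjusted p = 1.2e-12), from 58.8 ± 2.1 to 74.4 ± 0.79 CPM (SD, n = 3). These genes are interferon-responsive, as are those of the immunoproteasome list, of which 9 of 9 rose in this comparison, where 32.8% of all genes rose. Psmb8, an inducible catalytic subunit left out by the rule, was at 38.9 ± 2.0 CPM in Nuclear Het and 10.5 ± 0.23 CPM in Nuclear WT (SD, n = 3), a rise of 1.90 (SE 0.07, edgeR adjusted p = 1.65e-42). Summed immune cell markers moved with it: 12 of 13 rose, beside the same 32.8% of all genes, and their sum was 1561 CPM in Nuclear Het against 524 to 974 CPM in the other groups. Their part in the rise of Psme1 and Psme2 was not tested. Of the low genes Psma8 and Psme2b also passed the test, at 52 and 135 counts over the 3 Nuclear Het libraries against 20 and 63 in Nuclear WT.

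Between the mutant genotypes in nuclear RNA, 13 genes were higher in Hom than in Het and 3 were lower, 34.8% of members against 43.2% of all genes. Of all genes 21.4% were higher and 21.8% lower. The median was 0.06 beside -0.001 for all genes. On library totals it was 0.01 beside -0.06 for all genes, and 8 were higher and 4 lower. Psmb7 (0.24, SE 0.03), Psmd9 (0.24, SE 0.05), Psmb5 (0.22, SE 0.04) and Psmg1 (0.20, SE 0.06), a chaperone of alpha-ring assembly, had the largest rises. Psme1 (-0.29, SE 0.04) and Psme2 (-0.25, SE 0.04) fell, with Psme2b the remaining gene that fell. Psme4 was not called, at 0.06 with a 95% interval of 0.00 to 0.13, and neither was Psmd2, at -0.01.

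In total RNA the heterozygotes went the other way. Against Total WT, 27 genes rose and 6 fell in Total Het, 71.7% of members against 61.1% of all 15051 genes tested. Of the members 58.7% rose, where 30.9% of all genes did, and 13.0% fell, where 30.3% of all genes did. The 19S subunits rose in 15 of 17 cases, with a median of 0.28, and the core in 9 of 14, with a median of 0.16. The median of the 43 genes was 0.19 beside -0.01 for all genes, and on library totals 0.01 beside -0.19, where 13 genes were called higher and 15 lower and 19 of the 33 calls held with 0 reversed. Psme4 rose by 0.57 (SE 0.03, edgeR adjusted p = 7.96e-41). Other large rises were those of Psmg2 (0.43, SE 0.08), the ATPase Psmc2 (0.40, SE 0.03) and the lid subunit Psmd6 (0.38, SE 0.03). The falls were in Psmg4 (-0.31, SE 0.09), the lid subunit Psmd3 (-0.20, SE 0.03), Psme2 (-0.19, SE 0.04), Psme1 (-0.16, SE 0.03), and in Psma4 and Psmc3 by less.

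Homozygotes against wild type in total RNA gave 8 rises and 17 falls, 54.3% of members against 61.6% of all genes, of which 30.6% rose and 31.0% fell, with a median of -0.05. The median was -0.02 without Total WT replicate 2 and -0.07 on library totals, where 4 genes were called higher and 17 lower. For all genes it was -0.001 on the TMM scale and -0.03 on library totals. Here single subunits stood out from their rings. Psma4 was at 104, 101 and 98.7 CPM in Total Hom, and at 124 to 156 CPM in the other 15 libraries. It fell by 0.42 (SE 0.03, edgeR adjusted p = 8.47e-26). Psma7, its neighbour in the same ring, was at 184, 186 and 181 CPM in Total Hom and at 139 to 158 CPM in the other 15 libraries. It rose by 0.32 (SE 0.03, edgeR adjusted p = 3.39e-21). The Total Hom libraries thus lay wholly outside the range of all others for both genes, in opposite directions. Psmd9 rose by 0.33 (SE 0.05), and Psmd4, a ubiquitin receptor of the base, and the lid subunit Psmd8 rose by 0.18 and 0.13 (SE 0.03 each). Psme4 (-0.37, SE 0.03), Psmc3 (-0.32, SE 0.03) and Psmd11 (-0.27, SE 0.03) fell.

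The comparison of Hom with Het in total RNA held the largest change of any of the 43 genes between genotypes, and Xist did not separate its groups. Of the 46 genes 5 rose and 25 fell, 65.2% of members against 67.0% of all genes, so the share called was near the background. Of the members 54.3% fell, where 34.1% of all genes did. Of the 19S subunits 15 of 17 fell, with a median of -0.31, and in the core 7 of 14 fell and 1 rose, with a median of -0.09. The median of the 43 genes was -0.18 beside 0.01 for all genes, and -0.03 beside 0.16 on library totals, where 12 genes were called higher and 19 lower and 24 of the 30 calls held with 0 reversed. Psme4 fell by 0.94 (SE 0.03, edgeR adjusted p = 3.75e-64), from 213 ± 4.5 to 111 ± 4.6 CPM (SD, n = 3).

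Psmd2 was at 287, 280 and 276 CPM in Total Het and at 187, 182 and 186 CPM in Total Hom, with Total WT between them at 220, 220 and 215 CPM. It fell by 0.60 (SE 0.03, edgeR adjusted p = 4.13e-49). The lid subunit Psmd11 was at 104, 112 and 108 CPM in Total Het and at 76.3, 73.3 and 68.8 CPM in Total Hom. It fell by 0.56 (SE 0.03, edgeR adjusted p = 2.92e-33). The Total Hom libraries of Psmd11 were below every other library. The ATPase Psmc6 was at 105, 104 and 104 CPM in Total Het and at 77.5, 71.8 and 74.1 CPM in Total Hom, a fall of 0.49 (SE 0.03, edgeR adjusted p = 1.12e-28).

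In the core, Psmb7 was at 185, 184 and 181 CPM in Total Het and at 129, 131 and 128 CPM in Total Hom. It fell by 0.50 (SE 0.03, edgeR adjusted p = 2.89e-35), Psmb5 fell by 0.52 (SE 0.04, edgeR adjusted p = 7.08e-21), and Psmb6 was not called, at 151 ± 1.4 and 150 ± 1.9 CPM (SD, n = 3). Psma3 was at 120, 124 and 127 CPM in Total Het and at 96.4, 99.0 and 98.6 CPM in Total Hom, a fall of 0.33 (SE 0.03, edgeR adjusted p = 8.88e-18). The groups did not overlap for Psmb5, Psmb7 or Psma3. The genes that rose were Psmg4 (0.46, SE 0.09), Psmd9 (0.34, SE 0.05), Psma7 (0.23, SE 0.03), Psme1 (0.14, SE 0.03) and Psme2. Psmg4 was at 9.77, 10.2 and 11.7 CPM in Total Het and at 13.8, 14.8 and 14.7 CPM in Total Hom, and Psmd9 at 39.7, 38.6 and 39.0 against 46.0, 49.3 and 52.8 CPM.

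**Figure D4:**
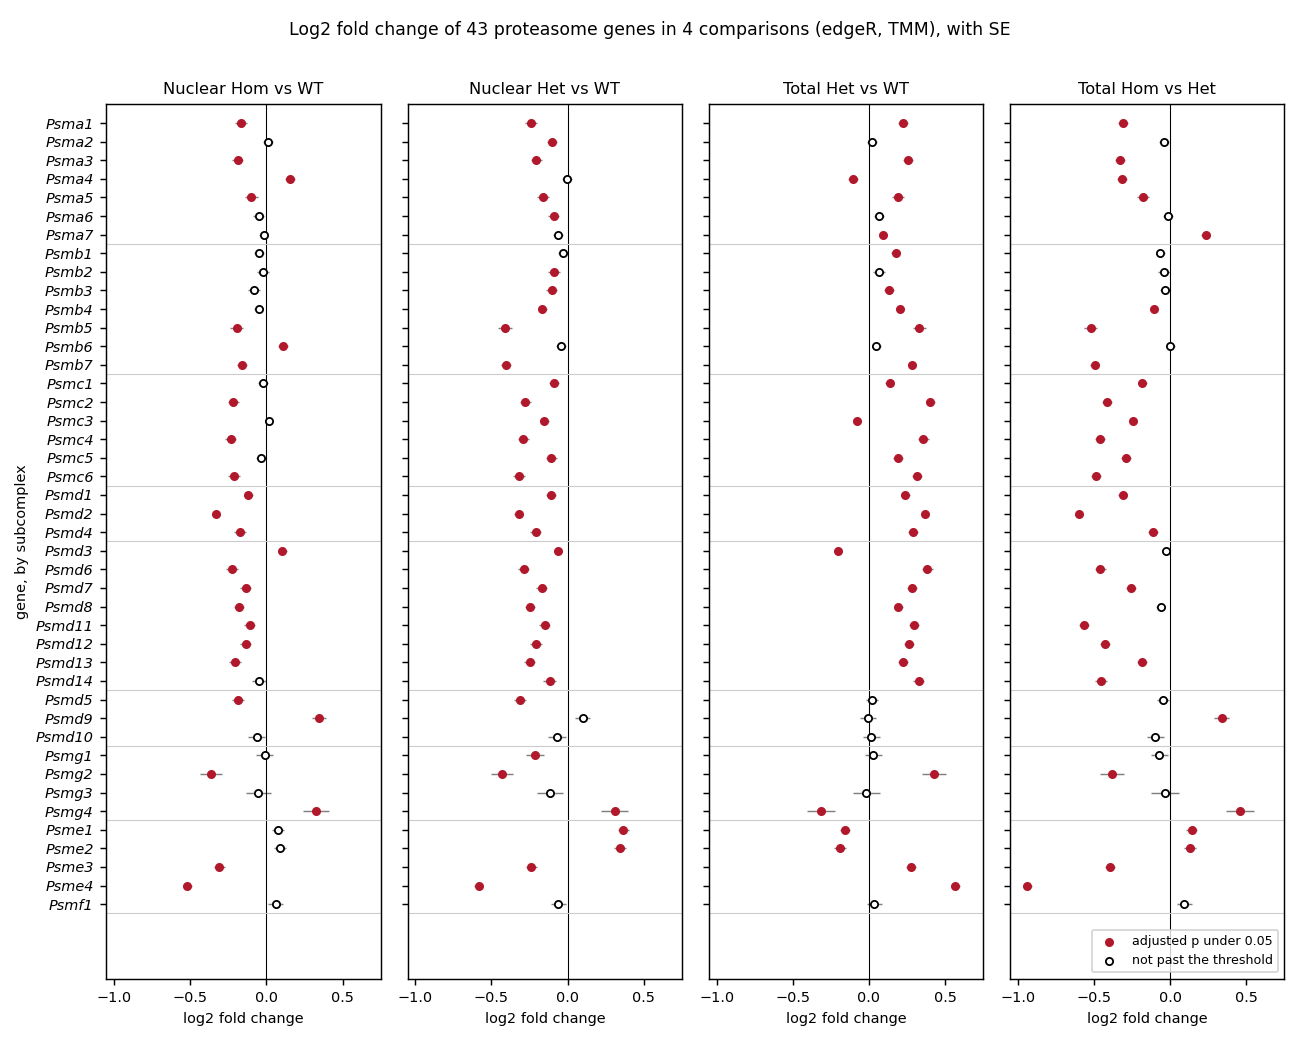
Log2 fold changes (TMM) of 43 proteasome genes, with SE, in 4 genotype comparisons. The horizontal axes give log2 fold change and the vertical axis the genes by subcomplex; filled points passed the edgeR test. 19S genes lie mostly left of 0 in Nuclear Het against WT and Total Hom against Het and mostly right of 0 in Total Het against WT on this scale. On library totals the medians of the 43 genes are 0.02, -0.03 and 0.01, beside 0.20, 0.16 and -0.19 for all genes. Psme4 is the farthest from 0 in each panel, and its direction is the same on library totals.

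**Figure D5:**
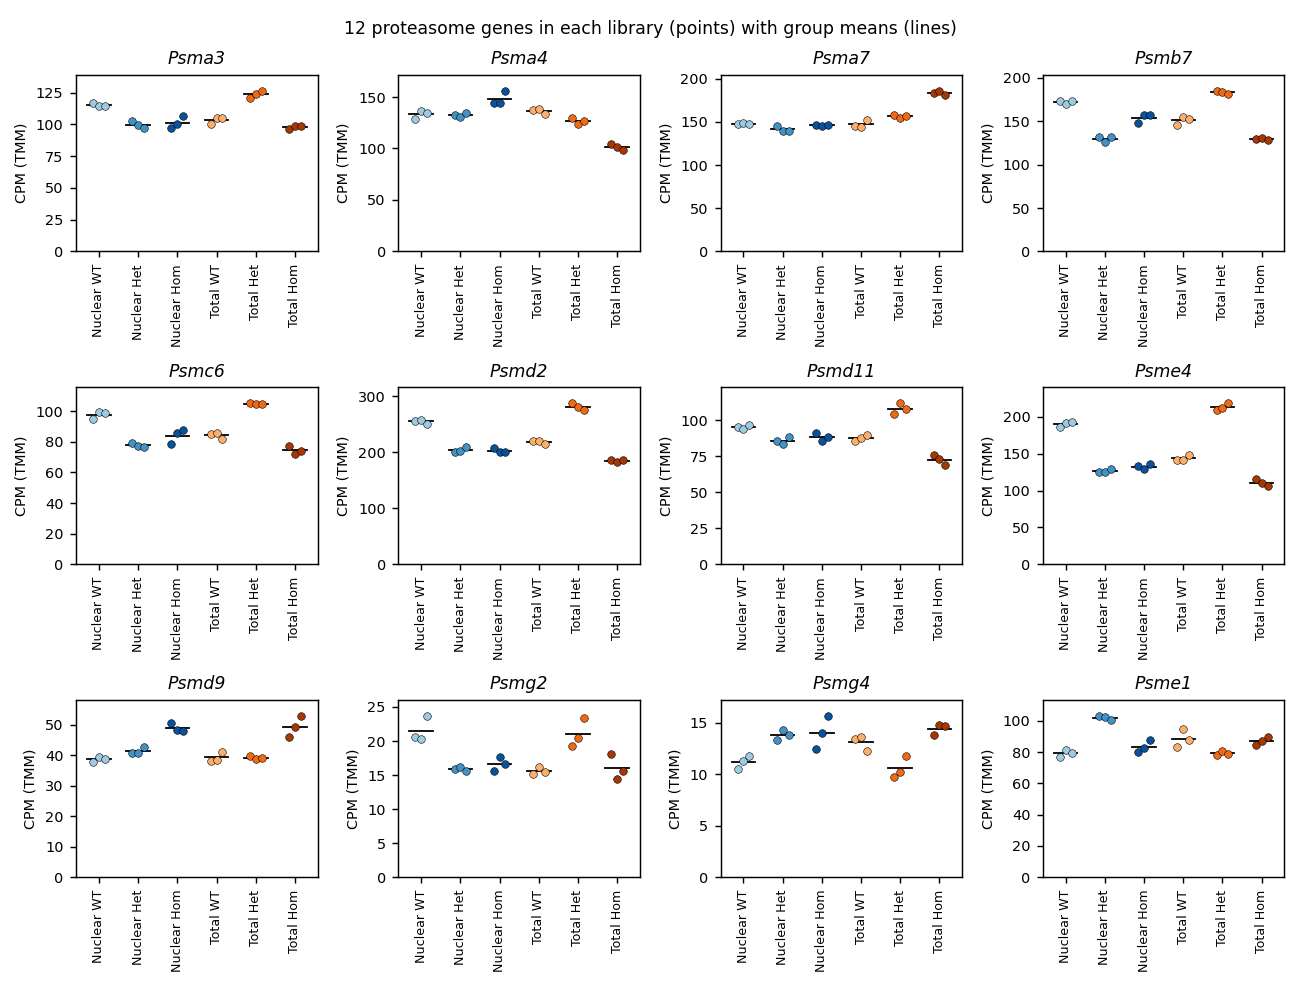
CPM (TMM) of 12 proteasome genes in each of the 18 libraries. Points are libraries and lines are means of the 3 libraries of a group; every vertical axis starts at 0. Psma4 (98.7 to 104 CPM) and Psma7 (181 to 186 CPM) in Total Hom lie outside the range of all other libraries, and Psme1 is highest in Nuclear Het.

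Ratios of counts within a library do not depend on the scaling, and were chosen after the values were seen. The summed counts of the 19S subunits were 1.33 ± 0.012 times those of the 20S core in Nuclear WT, 1.29 ± 0.0047 in Nuclear Het, 1.27 ± 0.020 in Nuclear Hom, 1.31 ± 0.016 in Total WT, 1.36 ± 0.012 in Total Het and 1.21 ± 0.012 in Total Hom (SD, n = 3). Total Hom was lowest and did not overlap any other group. The ratio of Psma7 to Psma4 was 1.81 ± 0.041 in Total Hom and 0.985 to 1.24 as means of the other groups. The ratio of Psmb7 to Psmb6 was 1.202 ± 0.045 in Nuclear WT and 1.22 ± 0.015 in Total Het, against 0.862 to 1.04 as means of the others, and that of Psmb5 to Psmb6 was likewise highest in these groups, at 0.439 ± 0.016 and 0.452 ± 0.026. Psmd2 to Psmd3 was 1.12 ± 0.0099 in Nuclear WT and 1.34 ± 0.021 in Total Het, against 0.831 to 0.941 elsewhere. Psme1 to Psme3, interferon-type against nuclear PA28, ran the opposite way, at 0.651 ± 0.019 in Nuclear WT and 0.652 ± 0.024 in Total Het against 0.851 to 0.989 elsewhere. For Psma7 to Psma4, the Total Hom libraries lay apart from all others. For both ratios to Psmb6, the Nuclear WT and Total Het libraries lay above all others. In the ATPase ring, Psmc2 to Psmc3 was 0.428 to 0.440 in Total WT libraries and 0.478 to 0.490 in Nuclear Hom libraries, below the rest. Its Nuclear WT libraries (0.537 to 0.598) overlapped those of Nuclear Het, Total Het and Total Hom. Because the pairs were chosen after their values were seen, they cannot show how common such differences are within a ring. The groups with the high Psmb7 to Psmb6 ratios are those with the high proximal tubule sums given above, and the part of that difference was not tested.

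Nuclear RNA was compared with total RNA within each genotype to ask which transcripts differ between the fractions. In WT, 22 genes were higher in nuclear RNA and 7 lower, 63.0% of members against 61.7% of all 15410 genes. In Het 4 were higher and 34 lower, 82.6% against 63.6%, and in Hom 17 were higher and 6 lower, 23 of 46 against 60.3%. Of all genes 30.9% were higher and 30.8% lower in WT, 33.4% and 30.2% in Het, and 30.5% and 29.8% in Hom. Medians of the 43 genes were 0.08 in WT, -0.24 in Het and 0.05 in Hom, beside -0.01, 0.04 and 0.01 for all genes. On library totals they were -0.08, -0.04 and 0.03, beside -0.17, 0.24 and -0.01, so the sign in WT flipped and 11 of 29, 20 of 38 and 19 of 23 calls held, with 1, 2 and 0 reversed. Calls on library totals were 4 higher and 20 lower in WT, 10 and 16 in Het and 13 and 6 in Hom. With only genes of at least 5 CPM in the fit the medians in WT and Hom were 0.03 each. The median in Hom was 0.02 without Nuclear Hom replicate 2, and 4 genes were lower in WT with the deposited column of Total WT replicate 1. Psme4 was higher in nuclear RNA in WT (0.40, SE 0.03) and Hom (0.26, SE 0.03) and lower in Het (-0.75, SE 0.03). In WT, Psmg2 (0.46, SE 0.07), Psmc2 (0.28, SE 0.03) and Psme3 (0.28, SE 0.03) were higher as well, and Psmg4 (-0.23, SE 0.09), Psme2 (-0.17, SE 0.04), Psme1 (-0.16, SE 0.04) and Psmc3 (-0.12, SE 0.03) lower. The call for Psmg4 was lost without Nuclear WT replicate 1 (-0.18), Total WT replicate 1 (-0.21) or Total WT replicate 2 (-0.20), with edgeR adjusted p from 0.0615 to 0.117. The call for Psmc3 was lost with the deposited column of Total WT replicate 1 (-0.06, edgeR adjusted p = 0.159).

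In Het, the genes higher in nuclear RNA were Psmg4 (0.39, SE 0.09), Psme2 (0.37, SE 0.04), Psme1 (0.36, SE 0.04) and the low Psme2b. After Psme4, the largest differences the other way were those of Psmb5 (-0.53, SE 0.04), Psmb7 (-0.50, SE 0.03) and Psmd2 (-0.46, SE 0.03). In Hom, Psma4 was higher in nuclear RNA by 0.55 (SE 0.03, edgeR adjusted p = 1.35e-34), at 144, 145 and 156 CPM in Nuclear Hom against 98.7 to 104 CPM in Total Hom. Psma7 was lower by 0.33 (SE 0.03, edgeR adjusted p = 1.87e-20). Psmd11 (0.28, SE 0.04) and Psmd3 (0.25, SE 0.03) were also higher, and Psmd4 (-0.20, SE 0.03), Psmd8 (-0.12, SE 0.03) and Psmd13 (-0.12, SE 0.03) of the base and lid lower. The 3 comparisons share no library, and the fractions of a genotype also differed in Xist as given above.

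Whether a genotype changed the nuclear-to-total ratio was tested as an interaction. For Hom against WT, 5 ratios rose and 17 fell, 47.8% of members against 56.1% of all genes (28.4% higher and 27.7% lower), and on library totals 15 rose and 4 fell. The median was -0.05 beside 0.02 for all genes, and it flipped to 0.10 beside 0.17 on library totals. It was -0.02 with only genes of at least 5 CPM in the fit and -0.07 without Nuclear Hom replicate 3. For Het against WT, 7 rose and 33 fell, 87.0% of members against 70.7% of all genes, with a median of -0.35 beside 0.07 for all genes. On library totals the median for Het was 0.01 beside 0.43, where 18 rose and 11 fell, and 18 of the 40 calls held and 7 reversed. The interaction values of single genes stand in the closing section.

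Genes that work with the proteasome were counted from lists that hold none of the 47 genes and that overlap in part with each other. Their counts, log2 changes and levels, here and in the next paragraph, are on the TMM scale. They were not counted on library totals, where the median log2 change of all genes was 0.14, 0.20, -0.19 and 0.16 in the comparisons named next, in that order. Of all genes tested, 26.5% rose and 27.8% fell in nuclear Hom against WT, 32.8% and 31.7% in nuclear Het against WT, 30.9% and 30.3% in total Het against WT, and 32.9% and 34.1% in total Hom against Het, and the counts below stand beside these shares. Of 17 partners outside the rule (receptors, deubiquitinases, shuttles and the maturation factor Pomp), 2 rose and 12 fell in nuclear Hom against WT, 2 rose and 11 fell in nuclear Het against WT, 9 rose and 3 fell in total Het against WT, and 2 rose and 11 fell in total Hom against Het. Adrm1, a ubiquitin receptor of the 19S base, fell by 0.31 in nuclear Hom against WT (SE 0.04, edgeR adjusted p = 3.82e-11), and the shuttle Ubqln1 fell by 0.26 (SE 0.03, edgeR adjusted p = 1.18e-13). A mixed list around NFE2L1, not of activators alone, held Nfe2l1, Nfe2l2, Bach1, Maff, Mafg, Mafk, Ngly1, Ddi2, Vcp, Syvn1 and Sel1l. Of these 11 genes, 1 rose and 7 fell in nuclear Hom against WT and 8 rose and 2 fell in total Het against WT. Vcp, the extracting ATPase, fell by 0.29 in the former (SE 0.02, edgeR adjusted p = 6.62e-19) and by 0.66 in total Hom against Het (SE 0.02, edgeR adjusted p = 3.92e-62). Nfe2l1 itself, named outside the rule after its values were seen, was lowest in Total Het, at 294 ± 6.2 CPM, and at 343 to 386 CPM as means of the other groups. Total Het also had the highest summed subunit level on the TMM scale, but by share of counts it was at 0.451%, below Total WT at 0.453%. The part of Nfe2l1 in the members' changes was not tested.

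Of 25 genes of ubiquitin and its conjugation and extraction, 3 rose and 17 fell in nuclear Hom against WT (26.5% and 27.8% of all genes), and 2 rose and 16 fell in total Hom against Het (32.9% and 34.1% of all genes). Rps27a, a ubiquitin-ribosome fusion gene, was among those that rose in both, by 0.57 (SE 0.03) and 0.80 (SE 0.02). Of 20 cytosolic chaperone genes, 16 fell in nuclear Hom against WT, 18 fell in nuclear Het against WT (31.7% of all genes), and in total RNA 4 rose and 13 fell in Hom against Het. Hspa8, the constitutive HSP70, fell by 0.92 in nuclear Hom against WT (SE 0.02, edgeR adjusted p = 6.96e-58), more than any of the 43 proteasome genes. On the TMM scale the summed chaperone level was 6912 CPM in Nuclear WT, the highest of the 6 groups. Of the 9 genes of the immunoproteasome list, 7 rose and 1 fell in nuclear Hom against WT, and 4 rose and 1 fell in total Hom against Het.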

How the data were processed

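The authors deposited raw counts per gene symbol for 18 libraries, with a gene length that was used here for levels per kb. CASAVA, STAR 2.5.2b, featureCounts, DESeq2 and the build mm9 are named per the submitters' processing notes. The annotation and strand setting are not given in the sources used here. The kit was KAPA Stranded mRNA-Seq and RNA came from TRIzol extraction, per the labels. Reads carry no molecular identifiers. The errors given cover the spread among the libraries of a group as well as counting error.

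The 9 nuclear columns were subtracted from Total WT replicate 1, and 0 of its genes fell below 0. Counts were fitted with edgeR 4.0.16 (R 4.3.3; filterByExpr, TMM, glmQLFit robust, glmQLFTest), with 9 libraries of a fraction in 1 fit for genotypes and all 18 in 1 fit for fractions and ratios. The fits put the biological coefficient of variation at 3.05% (nuclear), 3.90% (total) and 3.54% (all 18). P-values were adjusted over all genes tested, and the script was tested on simulated data. Errors beside log2 values are standard errors (SE).

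The members, lists and tests were chosen with earlier results of these data known. Values were written out, per comparison, for up to 4 called genes of at least 5 CPM in each direction, and per library for the gene of each subcomplex with the smallest p in nuclear Hom against WT and in total Hom against Het. Further genes with values per library (Psma4, Psma7, Psmb5, Psme1) were chosen after their values were seen. Of other lists, up to 3 genes with the smallest p in nuclear Hom against WT could be named. Settings varied in turn were the count model (DESeq2 1.42.0), the scaling (RLE, library totals), the low-count filter, a replicate block, the libraries in the fit, the deposited column of Total WT replicate 1, removal of Rn45s, and leaving out each library.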

Additional observations from a re-analysis of the deposited data

Results flagged for a closer look

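For 16 of the values written out, the genotype effect differed between nuclear and total RNA by the test of the interaction in edgeR (adjusted p from 4.76e-56 to 0.00415). All 16 kept their direction and their call on library totals. They were written out as the largest called changes of each ratio in each direction, so this was favoured by their choice. It does not carry to the smaller calls, many of which for Het did not keep theirs. Values are log2 changes of the nuclear-to-total ratio relative to WT.

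For Het, the change was -1.15 for Psme4, -0.86 for the chaperone Psmg2, -0.74 for Psmb5 and -0.69 for Psmb7, the last 2 being catalytic subunits. Each of these genes fell in nuclear RNA and rose in total RNA of Het relative to WT. The change was 0.14 for the lid subunit Psmd3, 0.52 for Psme1, 0.53 for Psme2 and 0.62 for the chaperone Psmg4.

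For Hom, the change was -0.41 for Psmg2, -0.35 for Psmd4, -0.34 for Psma7 and -0.31 for Psmd8. It was 0.16 for Psmd11, 0.34 for Psmc3, 0.34 for Psmd3 and 0.58 for Psma4. For Psma4 the nuclear level rose and the total level fell in Hom relative to WT. Each of these interactions contrasts groups that differ in Xist in opposite directions in the 2 fractions, so genotype and sex cannot be told apart in them.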

How the results depend on the processing

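Scaling by library totals alone moved most results. Shares of all genes called were not counted on that scale, so the counts given here do not show a direction of these genes. This scaling gave 15 higher and 9 lower genes and a median log2 change of 0.0415 in nuclear Hom against WT. It gave 17 and 10 with 0.0243 in nuclear Het against WT, and 8 higher with 0.00963 in nuclear Hom against Het. In total RNA it gave 4 higher with -0.0720 in Hom against WT, 13 and 15 with 0.0136 in Het against WT, and 12 higher with -0.0292 in Hom against Het. In the comparison of fractions it gave 4 and 20 with -0.0784 in WT and 10 and 16 with -0.0401 in Het, and in the ratios 15 and 4 with 0.0981 for Hom and 18 and 11 with 0.00740 for Het. The medians of nuclear Hom and Het against WT, of the fractions in WT and of both ratios changed sign there. The medians of all genes moved in the same direction in each. They went from 0.02 to 0.14 and 0.02 to 0.20 in nuclear Hom and Het against WT, and from -0.01 to -0.17 between fractions in WT. For the ratios they went from 0.02 to 0.17 (Hom) and 0.07 to 0.43 (Het). Why the scales differ between groups was not tested. All 84 log2 changes written out under the naming rule kept call and direction on that scale. The rule picked the largest called changes, so this does not show how often smaller changes keep their call. With only genes of at least 5 CPM in the fit, fewer genes were tested and the medians were -0.0462, -0.105 and 0.0509 in nuclear RNA (Hom against WT, Het against WT, Hom against Het), 0.166 and -0.152 in total RNA (Het against WT, Hom against Het), 0.0349, -0.209 and 0.0309 between fractions in WT, Het and Hom, and -0.0182 and -0.276 for the Hom and Het ratios. The deposited column of Total WT replicate 1 gave a median of 0.176 in total Het against WT and 4 lower genes between fractions in WT. A fit of only the groups compared gave -0.255 between fractions in Het. Leaving out single libraries gave medians of -0.105 to -0.0655 in nuclear Hom against WT, -0.178 to -0.145 in nuclear Het against WT, 0.0521 to 0.0752 in nuclear Hom against Het, -0.0647 to -0.0188 in total Hom against WT, 0.174 to 0.202 in total Het against WT and -0.187 to -0.157 in total Hom against Het. Between fractions they were 0.0649 to 0.109 in WT, -0.246 to -0.221 in Het and 0.0209 to 0.0581 in Hom, and for the ratios -0.0710 to -0.0419 (Hom) and -0.369 to -0.325 (Het). No count of called genes moved by over 1.5 times without a library. DESeq2 reversed 0 calls and kept between 22 of 25 (total Hom against WT) and 33 of 33 (total Het against WT). Over all alternatives these 84 changes were recomputed in combinations of a value and a setting, of which 1376 kept the call and 4 lost it, those of Psmg4 and Psmc3 given in the report. Psma3 and Psmb7 in nuclear Hom against WT are not among the 84, and lost their calls on library totals.

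With replicate number as a block, 22 genes fell in nuclear Hom against WT, 26 fell in total Hom against Het and 21 were higher in nuclear than in total RNA of WT, against 21, 25 and 22 without the block. Counts in the other comparisons were the same. Deviations from the group mean correlated at -0.07 to 0.07 for libraries with the same number, and at -0.15 to 0.11 for those with different numbers. Because each mean is of only 3 libraries, this cannot show whether the numbers mark a shared mouse or batch. Depth limits Psmg4 and Psmg2, the Psm genes of at least 5 CPM with the widest errors printed here. It also limits Psmg3, which had fewer counts than either, and the 4 genes under 5 CPM.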
